A study of Mus musculus with 6 samples.

Results

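The 10 genes described here encode the calcium release machinery of the skeletal muscle triad: Cacna1s, Cacnb1, Cacna2d1, Cacng1, Ryr1, Ryr3, Stac3, Jph1, Jph2 and Trdn. They were taken by symbol from the deposited gene table, where each had 1 row, and they are 10 of its 39010 genes. All 10 passed the filter of at least 1 FPKM in at least 2 of the 6 libraries, as 13566 genes did in all. FPKM is the fragment count of a gene scaled to its transcript length and to the size of the library. RNA-seq was made from hindlimb skeletal muscle of wild-type mice of mixed strain background at postnatal days 2 (P2), 7 (P7) and 14 (P14), with 2 libraries per stage. No mutant, treatment or other tissue entered the comparisons, which ask how expression changed during neonatal muscle growth. The design text calls the libraries of a stage biological replicates without naming the animals, so p-values measure the spread between these libraries only.

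In skeletal muscle, the action potential travels into the fibre along the transverse tubules, where the dihydropyridine receptor senses the voltage. This receptor touches the ryanodine receptor of the sarcoplasmic reticulum and opens it, so that stored calcium enters the cytoplasm and the fibre contracts. Junctophilins hold the tubule and reticulum membranes together at the triad, STAC3 is needed for the coupling of both receptors, and triadin anchors the calcium store to the release channel. In mouse muscle around birth the RyR3 isoform stands beside RyR1 and is later lost from most muscles.

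Every library carried abundant fibre transcripts. Ckm, the muscle creatine kinase gene, lay between 466 and 2089 FPKM, and of 8 heart markers Nppa, Nppb, Myl7, Tbx5 and Nkx2-5 stayed at or below 0.36 FPKM in every library. Of the other heart markers, Myh6 reached 2.14 and Tnni3 1.83 FPKM, and Myl4, a light chain gene that embryonic skeletal muscle also expresses, 112 FPKM at P2. Between 12175 and 13337 genes reached 1 FPKM per library. Fragment totals are not in the FPKM table, and the spacing of the lowest values placed the relative depth between 72.7% and 100% of P2 replicate 1. The libraries of a stage correlated at 0.952 to 0.967 across genes on the log2 scale. Xist marked P2 replicate 2 and P7 replicate 1 as female, and the other 4 libraries, both of P14 among them, carried Ddx3y of the Y chromosome.

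Between P2 and P14 most of the triad genes went up, and Ryr3 went down. At an adjusted p below 0.05 from limma, 8 of the 10 genes rose and 1 fell at P14 relative to P2, while Cacng1 did not pass. Of all 13566 genes tested, 24.3% were called in this comparison, 11.5% as higher and 12.9% as lower. The median log2 difference of the 10 genes was 1.42, beside -0.05 over all genes tested. Both P14 libraries lay above both P2 libraries for 9 genes and below them for Ryr3, which holds for 28.5% and 35.2% of all genes tested. In whole muscle, more fibre material and more RNA of a gene per fibre cannot be told apart. Without P14 replicate 1, which had the higher level for 9 of the 10 genes at that stage, 4 of the 10 were called, where 7.17% of all genes were. With no filter on low values 1 of the 10, Ryr3, was called, where 1.58% of 39010 genes were.

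**Figure D1:**
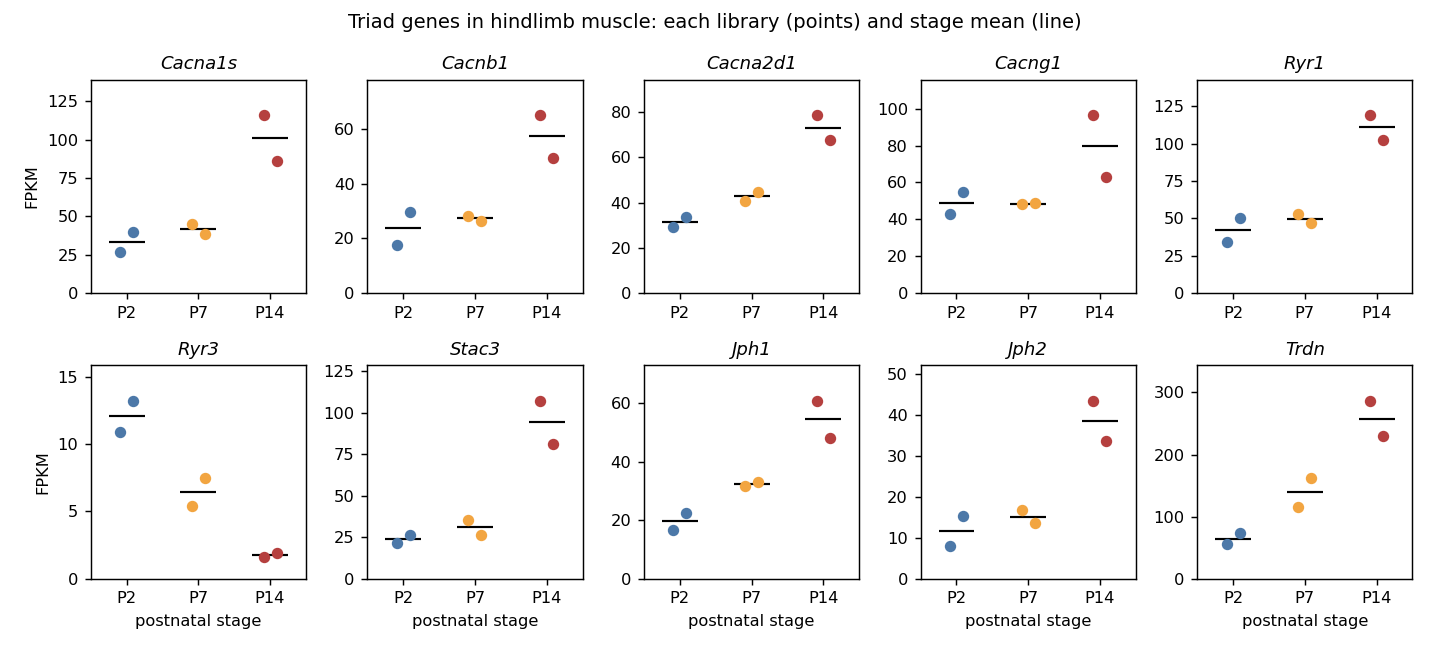
FPKM of the 10 triad genes (vertical axis, from 0, scaled for each gene) at P2, P7 and P14 (horizontal axis), where each point is 1 library and each line is the mean of the 2 libraries of a stage. Both P14 points lie above all earlier points in 9 of the panels, and for Ryr3 both P14 points, at 1.64 and 1.93 FPKM, lie below all earlier ones.

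The dihydropyridine receptor is built around Cacna1s, the pore and voltage sensor of the L-type channel (chr1:136052750-136119822, plus strand, 44 exons; all gene positions are GENCODE annotation on GRCm38). Cacna1s had 26.6 and 40.1 FPKM at P2, 45.4 and 38.8 at P7, and 116 and 85.9 at P14. Both P14 libraries exceeded all 4 earlier libraries, while the P2 and P7 libraries overlapped. The mean was 101 ± 21.3 FPKM at P14 and 33.3 ± 9.55 at P2 (SD, n = 2 each), a log2 difference of 1.58 ± 0.26 (SE, limma adjusted p = 0.00878). It was 0.34 (adjusted p = 0.0811) after scaling to fibre genes and 1.37 (adjusted p = 0.0578) without P14 replicate 1.

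Of its accessory subunits, Cacnb1 encodes the cytoplasmic beta subunit, which is needed for the channel to reach the triad (chr11:98001508-98023034, minus strand). It had 17.7 and 29.8 FPKM at P2, 28.4 and 26.4 at P7, and 65.1 and 49.6 at P14. It rose by 1.27 ± 0.27 on the log2 scale at P14 relative to P2 (limma adjusted p = 0.0195), although the difference was -0.04 after scaling to fibre genes without Ttn. Cacna2d1 encodes the extracellular alpha2-delta subunit (chr5:15934691-16374511, plus strand). Its levels were 29.3 and 33.5 FPKM at P2, 40.9 and 44.7 at P7, and 78.5 and 67.7 at P14, so that no library of a stage overlapped with another stage. The P14 to P2 log2 difference of Cacna2d1 was 1.19 ± 0.18 (limma adjusted p = 0.00716), and -0.05 after scaling to fibre genes.

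Cacng1, which encodes the transmembrane gamma subunit that restrains the channel, had overlapping libraries at P2 and P7 (chr11:107703218-107716522, minus strand). It had 43.0 and 54.8 FPKM at P2, 48.2 and 48.8 at P7, and 96.4 and 63.0 at P14. The means were 79.7 ± 23.6 FPKM at P14 and 48.9 ± 8.34 at P2 (SD, n = 2 each). The log2 difference of 0.67 had a 95% interval of 0.07 to 1.27 and did not pass the limma test (adjusted p = 0.0965). It passed under median-of-ratios scaling, with 0.71 (adjusted p = 0.0242), and turned to -0.58 (adjusted p = 0.00984) after scaling to fibre genes.

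The subunits were also set against Cacna1s in each library, with no test. Cacng1 was at 1.62 and 1.37 times the FPKM of Cacna1s at P2, at 1.06 and 1.26 times at P7, and at 0.831 and 0.734 times at P14. Cacnb1 was at 0.668 and 0.744 times Cacna1s at P2, at 0.625 and 0.681 at P7, and at 0.561 and 0.577 at P14. For both genes the P14 ratios lay below every earlier one, while for Cacnb1 those of P2 and P7 overlapped. The Cacna2d1 to Cacna1s ratio was 0.677 and 0.788 at P14, also below its range of 0.835 to 1.15 in the earlier libraries, where P2 and P7 overlapped.

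Ryr1 encodes the calcium release channel of the sarcoplasmic reticulum, a very large transcript with 109 exons and a coding length of 15183 bases (chr7:29003344-29125179, minus strand). Ryr1 had 34.0 and 50.04 FPKM at P2, 53.1 and 46.7 at P7, and 119 and 103 at P14. The P2 and P7 libraries overlapped and both P14 libraries lay above them. The mean of 111 ± 11.5 FPKM at P14 compared with 42.0 ± 11.4 at P2 (SD, n = 2 each), a log2 difference of 1.40 ± 0.24 (limma adjusted p = 0.00937). It was 0.15 (adjusted p = 0.379) after scaling to fibre genes and 1.30 (adjusted p = 0.0631) without P14 replicate 1. The antisense gene Gm26604 overlaps Ryr1 by 9540 bases and had 1.04 to 2.83 FPKM, and whether counting used the strand is not given in the sources used here.

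Ryr3, the second ryanodine receptor gene of developing muscle, went the other way (chr2:112631355-113217096, minus strand, 104 exons). It had 10.9 and 13.2 FPKM at P2, 5.44 and 7.48 at P7, and 1.64 and 1.93 at P14, and the libraries of the 3 stages did not overlap. The mean was 1.79 ± 0.202 FPKM at P14 and 12.1 ± 1.62 at P2 (SD, n = 2 each), a log2 difference of -2.22 ± 0.19 (limma adjusted p = 0.00171), which on this log2(FPKM + 1) scale understates the change of a gene at a low level. Ryr3 was the only member called lower at P14 than at P2, and it was called in all 20 alternatives, between -3.17 and -1.33 with an adjusted p of at most 0.0417. Aven, on the opposite strand, shares 3219 bases with Ryr3 and had 7.76 and 6.33 FPKM at P14, against 2.51 and 4.83 at P2.

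The balance of the ryanodine receptor genes can be read from FPKM, which is per length. Ryr1 was at 3.11 and 3.79 times the FPKM of Ryr3 at P2, at 9.76 and 6.24 times at P7, and at 72.3 and 53.2 times at P14. The mean ratio was 62.8 ± 13.5 at P14 and 3.45 ± 0.479 at P2 (SD, n = 2 each). Ryr2, the cardiac isoform, was at most 0.135 FPKM in any library. Ryr3 made up 24.2% and 20.8% of the summed FPKM of the 3 receptor genes at P2, 9.28% and 13.8% at P7, and 1.36% and 1.84% at P14. An exact permutation test of the log2 ratio of Ryr1 to Ryr3 over the 3 stages gave p = 0.0667, two-sided, the smallest value that the 90 arrangements allow, so this design cannot reach 0.05. For single pairs of stages the smallest p is 0.333, and all 3 pairs gave it.

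**Figure D2:**
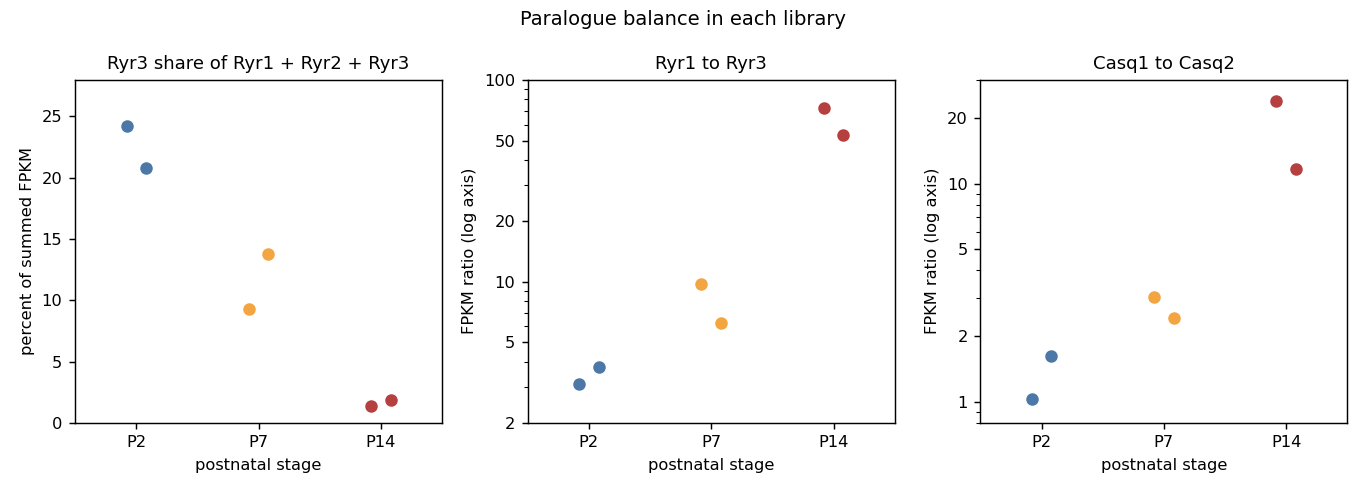
Share of Ryr3 in the summed FPKM of Ryr1, Ryr2 and Ryr3 in percent (left panel), FPKM ratio of Ryr1 to Ryr3 (middle panel, log axis) and of Casq1 to Casq2 (right panel, log axis) at P2, P7 and P14, with 1 point per library. The Ryr3 share lies between 1.36% and 1.84% at P14 and between 20.8% and 24.2% at P2, and the libraries of the 3 stages do not overlap in any panel.

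Stac3 encodes the adaptor that links the voltage sensor to RyR1 and is needed for contraction in mice (chr10:127501686-127508823, plus strand). It had 21.3 and 26.5 FPKM at P2, 35.7 and 26.1 at P7, and 107 and 81.3 at P14. Both P14 libraries were above the earlier ones, and the P2 and P7 libraries overlapped. The P14 mean was 94.2 ± 18.3 FPKM and the P2 mean 23.9 ± 3.66 (SD, n = 2 each), with a log2 difference of 1.93 ± 0.24 (limma adjusted p = 0.00426). The FPKM of Stac3 was 0.924 and 0.947 times that of Cacna1s at P14, against 0.803 and 0.661 times at P2. At P7 this ratio was 0.787 and 0.674.

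Both junctophilin genes of skeletal muscle rose. Jph1, the main junctophilin of this tissue (chr1:16964560-17097889, minus strand), had 16.8 and 22.5 FPKM at P2, 31.6 and 32.9 at P7, and 60.7 and 48.2 at P14. Jph2, which is also the junctophilin of the heart (chr2:163336242-163397993, minus strand), had 7.91 and 15.2 FPKM at P2, 16.8 and 13.6 at P7, and 43.3 and 33.6 at P14. The stages did not overlap for Jph1, while for Jph2 those of P2 and P7 did. The P14 to P2 log2 difference was 1.43 ± 0.21 for Jph1 (limma adjusted p = 0.00639) and 1.70 ± 0.30 for Jph2 (adjusted p = 0.0111). After scaling to fibre genes it was 0.20 for Jph1 (adjusted p = 0.192), and for Jph2 the adjusted p was 0.0665 without P14 replicate 1. Jph1 stayed above Jph2 in all 6 libraries, by 1.40 to 2.43 times in FPKM.

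Trdn, which encodes triadin, was the most abundant of the 10 genes at each stage (chr10:33080554-33476709, plus strand). It had 56.1 and 73.6 FPKM at P2, 116 and 163 at P7, and 286 and 229 at P14, and no stage overlapped with another. The P14 mean was 258 ± 40.3 FPKM and the P2 mean 64.8 ± 12.4 (SD, n = 2 each), a log2 difference of 1.98 ± 0.26 (limma adjusted p = 0.00497). Relative to Ryr1, Trdn was at 1.65 and 1.47 times the FPKM at P2, at 2.19 and 3.49 times at P7, and at 2.41 and 2.23 times at P14. The P2 libraries had the lowest of these ratios.

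Promoter sequence was shown for Cacna1s and Ryr1, whose levels moved most closely together among the receptor genes (Pearson r = 0.996 over the 6 libraries, a description, since all libraries of a stage share that stage), and for Jph2, which shares a motif with Cacna1s. The windows reach from 250 bases before to 50 bases after the start of transcription in the RefSeq annotation of GRCm38.p6, and windows were at hand for 5 of the 10 genes. They lie at chr1:136052561-136052860 (plus strand), chr7:29125102-29125401 (minus strand) and chr2:163397944-163398243 (minus strand), and are given 5′ to 3′ along the gene with motif matches in capitals.
Cacna1s: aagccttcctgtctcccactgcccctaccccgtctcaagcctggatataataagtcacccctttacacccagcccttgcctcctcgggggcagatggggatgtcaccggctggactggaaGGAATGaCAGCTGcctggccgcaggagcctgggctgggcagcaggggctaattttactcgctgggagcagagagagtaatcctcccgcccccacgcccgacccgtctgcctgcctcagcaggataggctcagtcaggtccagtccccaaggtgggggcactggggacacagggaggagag
Ryr1: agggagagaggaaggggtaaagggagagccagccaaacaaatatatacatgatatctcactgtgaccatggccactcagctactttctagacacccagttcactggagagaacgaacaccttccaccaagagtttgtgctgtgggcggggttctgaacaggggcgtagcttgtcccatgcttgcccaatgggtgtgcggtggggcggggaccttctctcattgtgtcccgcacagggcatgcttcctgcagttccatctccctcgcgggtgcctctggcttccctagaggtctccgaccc
Jph2: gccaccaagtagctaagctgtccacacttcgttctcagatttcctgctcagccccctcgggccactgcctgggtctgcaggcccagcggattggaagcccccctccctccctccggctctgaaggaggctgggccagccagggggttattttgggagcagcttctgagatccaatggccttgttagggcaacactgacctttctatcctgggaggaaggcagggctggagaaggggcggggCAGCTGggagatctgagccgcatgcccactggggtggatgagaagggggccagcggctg
The capitals mark the E-box CAGCTG, a binding motif of myogenic basic helix-loop-helix factors, in Cacna1s and Jph2, and the MCAT motif CATTCC, which Cacna1s holds on the opposite strand as GGAATG. In Cacna1s the E-box begins at position -123 and the MCAT match at position -130 from the start, and in Jph2 the E-box begins at position -9. Both strands of 7 windows of the 5 genes were searched for these motifs, for TCAGGTTTC (MEF3), for TATAAA, and for the MEF2 and CArG motifs. The E-box was in 3 of the 7 windows, from 2 of the 5 genes, and in 16.3% of 32851 promoters. The windows of Jph2 overlap and hold the same E-box, at position -29 in the window not shown. The MCAT motif was in 1 of the 7 windows and in 14.66% of promoters. No window of the 5 genes held the other 4 motifs, which occur in 0.43% to 13.62% of promoters. A match is a stretch of letters and not a measured site.

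Between P7 and P14 the pore, the release channel, STAC3 and Jph2 were among the genes that rose. In that interval 5 of the 10 genes rose and 1 fell, where 10.3% of all genes tested were called, 8.75% as higher and 1.6% as lower. Stac3 rose by 1.58 ± 0.24 (limma adjusted p = 0.0225), Jph2 by 1.28 ± 0.30 (adjusted p = 0.0462), Cacna1s by 1.23 ± 0.26 (adjusted p = 0.0385), Ryr1 by 1.13 ± 0.24 (adjusted p = 0.0373) and Cacna2d1 by 0.76 ± 0.18 (adjusted p = 0.0486) on the log2 scale. Ryr3 fell by 1.41 ± 0.19 (adjusted p = 0.018). Cacnb1, Trdn, Jph1 and Cacng1 had log2 differences of 1.03, 0.89, 0.73 and 0.67 with adjusted p from 0.0572 to 0.117. Both P14 libraries lay above both P7 libraries for 9 genes, as for 53.8% of all genes tested, and below them for Ryr3, as for 15.3%. With either P7 or either P14 library left out, the adjusted p of the 6 called genes lay between 0.0623 and 0.263, and after scaling to fibre genes Cacnb1, Cacna2d1, Cacng1, Jph1 and Trdn had log2 differences below 0 in this interval, as did Ryr1 at -0.0023 without Ttn among those genes.

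Between P2 and P7 none of the 10 genes passed the limma test, and 4 had an unadjusted p below 0.05. Of all genes 1.29% were called, 0.111% as higher and 1.18% as lower, and 3729 of the 13566 had an unadjusted p below 0.05. Trdn had the largest positive log2 difference, 1.09 ± 0.26 (adjusted p = 0.0854), followed by Jph1 with 0.70 ± 0.21 (adjusted p = 0.115), while Ryr3 was at -0.82 ± 0.19 (adjusted p = 0.0833). For Cacna2d1, Jph1 and Trdn both P7 libraries were above both P2 libraries, which holds for 6.42% of all genes tested, and for Ryr3 both were below, as for 53.9%. Cacna1s, Cacnb1, Ryr1, Stac3 and Jph2 lay between 0.24 and 0.42, and Cacng1 at -0.0022. The median log2 difference of the 10 genes was 0.35 in this interval, beside -0.27 over all genes tested, and 0.96 from P7 to P14, beside 0.23. The all-gene medians depend on scaling: under median-of-ratios scaling they were 0.0034 and -0.0015, and Trdn (1.44, adjusted p = 0.0497) and Jph1 (1.04, adjusted p = 0.0455) then passed between P2 and P7.

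The change of the second interval was also set against that of the first within each gene. The difference of the steps was highest for Stac3, at 1.23 on the log2 scale (limma adjusted p = 0.167), and lowest for Ryr3, at -0.59 (adjusted p = 0.277). Both depend on the processing: with 1 library left out they spanned 0.79 (without P7 replicate 2) to 1.67 for Stac3 and -0.99 to -0.19 (without P7 replicate 2) for Ryr3, and median-of-ratios scaling gave 0.59 and -1.15. None of the 10 passed, with 1 at an unadjusted p below 0.05, where 0.0663% of all genes tested were called, 0.0369% as higher and 0.0295% as lower, and 3439 had an unadjusted p below 0.05. For Trdn it was -0.19 ± 0.46 and for Jph1 0.03 ± 0.37 (SE). Over the 3 stages together, the limma F test called 9 of the 10 genes, all but Cacng1 (adjusted p = 0.118), where 21.1% of all genes were called. When 1 P7 or P14 library was left out, fewer of the 10 and fewer of all genes were called.

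**Figure D3:**
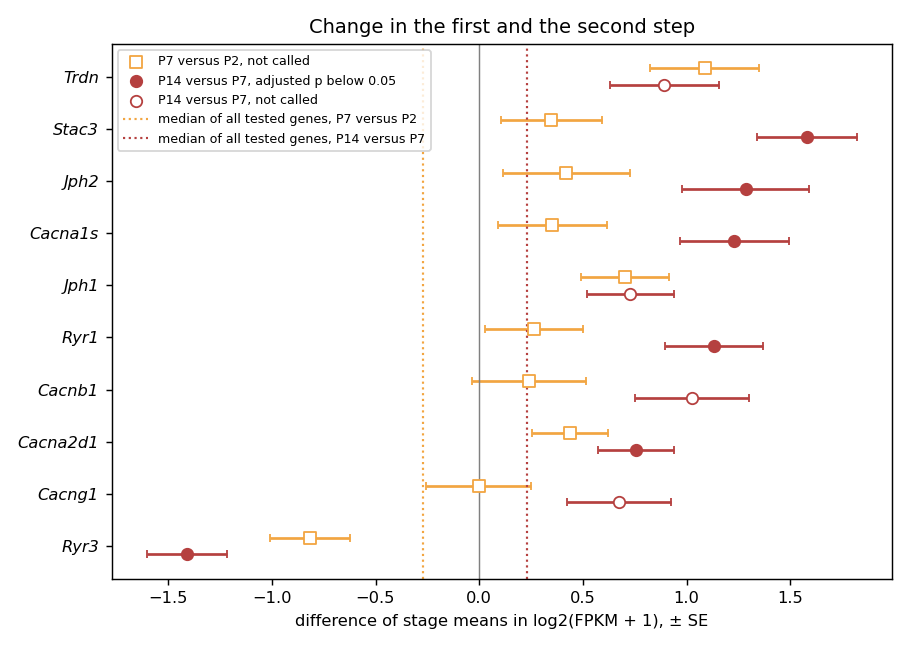
Difference of stage means on the log2(FPKM + 1) scale (horizontal axis, bars are ± SE) for the 10 triad genes, from P2 to P7 (squares) and from P7 to P14 (circles, filled where the adjusted p was below 0.05), with dotted lines at the all-gene medians of -0.27 and 0.23. No square is filled, 6 circles are, and the circles of Trdn and Jph1 lie close to their squares.

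In the authors' deposited table, which rests on Cuffdiff and gives p-values that are not adjusted, the signed P14 over P2 fold was 4.29 for Trdn, 4.23 for Stac3, 2.86 for Ryr1 and -6.25 for Ryr3, each with p = 5e-05. For Cacng1, which the limma test here did not call, the authors' deposited table holds a fold of 1.75 with p = 0.0002. The P7 over P2 folds of the authors' deposited table, from Cuffdiff as well, were 2.73 for Trdn and 2.08 for Jph1, both with p = 5e-05, and -1.48 for Ryr3 with p = 0.2064.

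The order of the genes by mean FPKM shifted with age. At P2 Trdn was first and was followed by Cacng1, Ryr1, Cacna1s, Cacna2d1, Stac3, Cacnb1, Jph1, Ryr3 and Jph2, where neighbours were apart beyond their ranges only after Trdn, Cacna2d1 and Jph1. At P7 the order was Trdn, Ryr1, Cacng1, Cacna2d1, Cacna1s, Jph1, Stac3, Cacnb1, Jph2 and Ryr3, with gaps after Trdn, Cacng1, Cacna1s, Cacnb1 and Jph2. At P14 it was Trdn, Ryr1, Cacna1s, Stac3, Cacng1, Cacna2d1, Cacnb1, Jph1, Jph2 and Ryr3, with gaps after Trdn, Cacna2d1, Jph1 and Jph2. Ryr3 thus stood above Jph2 at P2 and lowest at P7 and P14, though at P2 its range of 10.9 to 13.2 FPKM lay inside that of Jph2. The ratio of Cacna1s to Ryr1 stayed below 1 in all 6 libraries, with 0.783 and 0.801 at P2, 0.855 and 0.830 at P7, and 0.975 and 0.836 at P14.

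Fibre genes rose over the same stages. Of 19 fibre genes tested from a list of 20, 14 rose and none fell at P14 relative to P2 (11.5% and 12.9% of all genes), with a median log2 difference of 1.38, beside 1.42 for the triad genes. Mybpc2, a myosin-binding protein gene of fast fibres, rose by 3.48 (limma adjusted p = 0.006), Xirp2, which encodes an actin-binding protein, by 2.65 (adjusted p = 0.00213) and Pygm, the muscle glycogen phosphorylase gene, by 1.76 (adjusted p = 0.0102). Tnnc2 at 1.00, Dmd at 0.63, Des at 0.49 and Actn2 at 0.31 did not pass (limma adjusted p from 0.0503 to 0.31), nor did Ttn. Ttn was listed at 0 in P14 replicate 1 and at 926 FPKM in P14 replicate 2. At P14 Tnnt3, Mylpf, Tnnc2, Tnni2 and Ckm had the highest means of the list, so they weigh most in its sum. The list summed to 21570 and 16996 FPKM at P14, against 6631 and 9524 at P2, and to 8639 and 9363 at P7. The 9 triad genes other than Ryr3 made up 4.51% and 4.74% of that sum without Ttn at P14, against 4.19% and 3.89% at P2, and 5.18% and 5.05% at P7.

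When each library was scaled to the summed fibre genes, 5 of the 10 genes were called between P2 and P14, 3 as higher and 2 as lower. Under that scaling 81.8% of all genes were called, 267 genes as higher and 10834 as lower. Stac3 at 0.69 (limma adjusted p = 0.0144), Trdn at 0.72 (adjusted p = 0.00455) and Jph2 at 0.50 (adjusted p = 0.0461) were higher at P14, and Ryr3 at -3.12 (adjusted p = 8.68e-05) and Cacng1 at -0.58 (adjusted p = 0.00984) were lower. Ryr1 at 0.15 (adjusted p = 0.379), Cacna1s at 0.34 (adjusted p = 0.0811), Jph1 at 0.20, Cacnb1 at 0.03 and Cacna2d1 at -0.05 did not pass. With Ttn left out of the sum, an alternative chosen after its 0 was seen, Jph2 at 0.43 (adjusted p = 0.0805) no longer passed. Over all genes the median difference was -0.99 under this scaling.

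**Figure D4:**
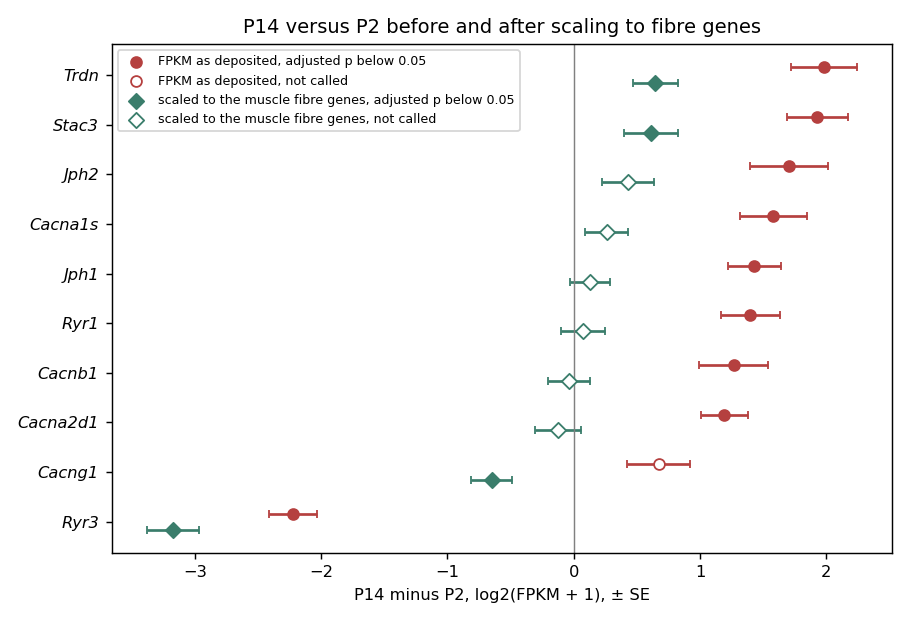
P14 minus P2 on the log2(FPKM + 1) scale (horizontal axis, bars are ± SE) for the 10 triad genes, with FPKM as deposited (circles) and with each library scaled to the summed fibre genes without Ttn (diamonds), filled where the adjusted p was below 0.05. Scaled values of Trdn, Stac3, Cacng1 and Ryr3 are filled, and Cacng1, Cacna2d1 and Cacnb1 turn to values below 0.

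Markers of some other cell types also moved with age, and their part in the results was not tested. All 9 tested neutrophil markers of 10 fell at P14 relative to P2, and their sum was 3.72 and 2.70 FPKM at P14, against 310 and 174 at P2. Of smooth muscle and mural markers 3 rose and 1 fell of 9 tested, where 11.5% of all genes were called higher and 12.9% lower. Their sums were 377 and 278 FPKM at P14, against 127 and 188 at P2, and Rgs5 and Acta2 made up most of each. Rgs5, Abcc9, Acta2, Kcnj8 and Pdgfrb had positive log2 differences, while Tagln, Myh11, Cspg4 and Notch3 lay between -0.65 and -0.37. Of endothelial markers 2 of 10 rose, beside the same 11.5%. Their sums were 214 and 186 FPKM at P14, against 90.3 and 167 at P2. Of satellite cell and myoblast markers 4 of 9 fell, where 12.9% of all genes were called lower. Of fibroblast (10 tested), macrophage (8) and Schwann cell or nerve markers (9) 1 each fell, which is close to that share. Of 8 heart markers 3 were tested and 1 fell, Myl4, which encodes a myosin light chain of the atrium and of embryonic muscle. Its mean was 8.25 FPKM at P14 and 104 FPKM at P2.

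The wider set of triad and calcium release genes moved in part with the 10. Of 28 tested genes from a list of 29, 13 rose and 1 fell at P14 relative to P2, where 11.5% of all genes were called higher and 12.9% lower. Their median log2 difference was 0.66, beside -0.05 over all genes. Casq1, the calcium-binding protein of the fast-fibre store, had 925 ± 254 FPKM at P14 and 201 ± 64.8 at P2 (SD, n = 2 each; log2 difference 2.21, limma adjusted p = 0.00604). S100a1, a calcium-binding modulator of RyR1, had 31.8 ± 5.08 FPKM at P14 and 6.93 ± 1.95 at P2 (2.06, adjusted p = 0.0028). Tmem38a, a cation channel of the reticulum, had 201 ± 34.9 FPKM at P14 and 60.4 ± 20.4 at P2 (1.75, adjusted p = 0.00773). The 10 other genes that rose lay between 0.62 for Mtm1, which encodes a phosphoinositide phosphatase, and 1.69 for Sypl2, a triad membrane protein.

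The gene that fell was Casq2, the calsequestrin of heart and slow fibres, with 55.1 ± 12.6 FPKM at P14 and 152 ± 1.09 at P2 (SD, n = 2 each; log2 difference -1.46, limma adjusted p = 0.00698). Casq1 was at 1.03 and 1.62 times the FPKM of Casq2 at P2, at 3.03 and 2.42 times at P7, and at 23.9 and 11.6 times at P14. From P7 to P14, 9 of the 28 genes rose and 1 fell, where 8.75% of all genes were called higher and 1.6% lower. Their median log2 difference was 0.83 in that interval, beside 0.23 over all genes, and -0.03 from P2 to P7, beside -0.27.

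Of the other channel, junctophilin and STAC paralogues, 20 of 21 listed genes had a row and 4 passed the filter. Cacng6, a further gamma subunit gene, rose, with 19.9 ± 6.07 FPKM at P14 and 7.96 ± 1.95 at P2 (SD, n = 2 each; log2 difference 1.21, limma adjusted p = 0.017). Cacna1c, the pore of the cardiac L-type channel, had a log2 difference of -0.11 (adjusted p = 0.619), Cacnb3 of -0.43 (adjusted p = 0.268) and Cacng7 of -0.34 (adjusted p = 0.216). None of these 3 passed the test.

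The genes whose levels ran most like Ryr1 over the 6 libraries, among 6004 protein-coding genes of at least 5 FPKM on average, were Cdc42ep3 (Pearson r = 0.9986), Tmem38a (0.9978), Mkl2 (0.9977), Fitm2 (0.9969) and Gm15440 (0.9969). Most like Ryr3 were Phactr2 (0.9982), Pdcd4 (0.997), Zdhhc20 (0.9943), Ap3s1 (0.9937) and Postn (0.9934). Postn, which encodes the matrix protein periostin, averaged 458 FPKM at P2, 252 at P7 and 111 at P14. With 6 libraries in 3 stages such values describe a shared course over age and are given with no test. Among the 10 genes, Ryr1 and Ryr3 correlated at -0.926.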

How the data were processed

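RNA-seq covered P2, P7 and P14 hindlimb muscle, with 2 libraries for each, built from 200 ng of total RNA after ribosomal depletion with a stranded kit, per the labels' protocols. Per the submitters' processing notes, the genome build was GRCm38 and the tools included TopHat2 2.0.8 and, both at version 2.2.1, Cuffdiff and Cufflinks, with CASAVA 1.2-14 and FastQC 0.10.1. Annotation, strand setting and scaling between libraries are not given in the sources used here. The deposited FPKM values have 1 column per library, per the file headers. The authors' comparison tables hold, per the file headers, a fold change, that is the ratio of 2 values, its signed form as a score, and an unadjusted p-value.

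Values were analysed as log2(FPKM + 1) for the 13566 genes that reached an FPKM of 1 in 2 or more libraries. All 6 libraries entered 1 limma 3.58.1 fit (R 4.3.3) of stage means with a variance trend, 3 residual and 3.80 prior degrees of freedom, two-sided tests and Benjamini-Hochberg adjustment over all genes, and genes were called at an adjusted p below 0.05. The fit was also run on simulated data, with independent noise drawn from the fit's own variance estimates. Such a run cannot show how scaling or a single library affects the calls. The 10 genes and all lists were chosen with earlier results of these data known. From each list up to 4 genes with the largest absolute P14 to P2 difference were named, and for Ryr1 and Ryr3 the 5 genes most alike, with further genes named after their values were seen. FPKM of different genes were compared as deposited, per length. Without fragment counts no counting interval was formed. Alternatives were the pseudocount, filter, scaling, variance model, a replicate or sex term, and libraries left out. GENCODE M21 holds 37449 (96.0%) of the identifiers, all 10 genes among them. Proteins were not analysed here.

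Replicate numbers did not pair the libraries: deviations of same-numbered libraries correlated at -0.02, -0.16 and 0.03, and the labels carry a further, different numbering.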

Additional observations from a re-analysis of the deposited data

How the results depend on the processing

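Of the 10 genes, the count called between P2 and P14 was 9, beside 24.3% of all genes. It stayed within 1.5 times of that under every setting run except those that follow. It was 1 with no filter (1.58% of all genes), 5 under scaling to the summed fibre genes (81.8%) and 4 under that scaling without Ttn (82.7%). It was also below the main count without P14 replicate 1, as was the share of all genes called. Between P7 and P14 it was 6 (10.3% of all genes), 0 with no filter (0.918%) and 2 under quantile normalization (8.79%). It was 1 under fibre scaling (52.7%), 2 without Ttn (54%) and 2 with the replicate block (2.22%). With 1 library left out it was 0 to 8. The share of all genes called was then below the main share at 0 and above it at 8. Between P2 and P7 it was 0, and 2 under median-of-ratios scaling (0.531% of all genes), 3 under quantile normalization (1.75%), 2 under scaling to protein-coding genes (1.91%) and 3 under fibre scaling with or without Ttn (30.1% and 25.6%). The F test called 9 (21.1% of all genes), 0 with no filter (1.57%), 5 under fibre scaling (78.2%) and 4 without Ttn (79.2%). Its count also moved with 1 library left out. With no filter 39010 genes enter the fit, most of them near 0. The replicate block is a term for a number that does not pair the libraries. It left the P2 to P14 count at 9 (17.7% of all genes) and moved the F test to 7 (10.8%). Directions turned as follows, and the cause was not tested. For Cacng1 between P2 and P7 the difference was 0.34, 0.24 and 0.14 under median-of-ratios, quantile and protein-coding scaling, and -0.17 to 0.17 with 1 library left out. With 1 library left out it spanned -0.12 to 0.60 for Cacnb1, -0.0069 to 0.54 for Ryr1 and -0.011 to 0.85 for Jph2 in that interval. Between P7 and P14, fibre scaling gave -0.037 for Cacnb1, -0.31 for Cacna2d1, -0.40 for Cacng1, -0.33 for Jph1 and -0.19 for Trdn, and without Ttn -0.10, -0.38, -0.46, -0.39 and -0.25, with -0.0023 for Ryr1. Between P2 and P14 it gave -0.049 for Cacna2d1 and -0.58 for Cacng1, and without Ttn -0.12 and -0.65, with -0.040 for Cacnb1. The mean Ryr1 to Ryr3 ratio at P14 was 40.4 with 1 FPKM added to both genes, against 62.8 without. Over all genes, the number called between P2 and P14 was 3301, and between 615 with no filter and 11224 under fibre scaling without Ttn. With 2 libraries a stage, 1 library decides many calls, and FPKM without fragment totals leave the counting error of low genes such as Ryr3 at P14 unknown. Both P14 libraries carried Ddx3y. With a sex term 9 of the 10 genes were called between P2 and P14, beside 18.2% of all genes. Between P7 and P14 the count was 5, beside 7.51%, and between P2 and P7 it was 0, beside 0.273%.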
